A study of Canis lupus familiaris with 15 samples.

Results

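The S100 calcium-binding proteins S100A2, S100A4, S100A10, S100A11 and S100A6 were followed across 15 arrays of MDCK (Madin-Darby canine kidney), a dog cell line of epithelial origin that grows into a polarised sheet on porous filters. The 5 genes were selected by symbol, from a series in which their differences between HGF and Control and between each inhibitor and HGF were already known. Every probe set that the platform annotation ties to one of these symbols was used, which gave 15 probe sets. These are 5 of the 15115 genes with an annotated probe set of a single symbol and 5 of the 10287 genes measured, a gene being measured if 3 or more arrays read a log2 intensity of 4 or higher on one of its probe sets. All 15 passed that filter, though the dimmest of S100A10 reached 4 only on HGF arrays and so had to be higher there. Probe sets of a gene are numbered from the brightest over all arrays, and the plots give the array maker's name of each.

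All cells were kept for 7 days on Transwell filters in MEM with 5% serum. The HGF + UO group (n = 3) received hepatocyte growth factor (HGF) at 100 ng/ml for 24 h with 10 uM of a compound spelled UO126. The HGF + PD group (n = 4) received the same HGF with 50 uM of a compound spelled PD09859, the HGF group (n = 4) received HGF alone, and the Control group (n = 4) received medium only. In the series title both are MAPK inhibitors; they were taken to be U0126 and PD98059, which inhibit MEK. The purpose of the series was to find which genes HGF regulates through the MAPK pathway. Neither a vehicle control nor an inhibitor without HGF is analysed here. The model is a single cell line, and the labels do not say whether the replicate cultures were grown at separate times, so p-values measure only the spread between these arrays.

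S100 proteins are small proteins that carry a pair of EF-hand motifs, work mostly as dimers and, on binding calcium, expose a surface that holds a target protein. They have no known enzymatic activity of their own and act through partners such as annexins, cytoskeletal motors and membrane channels. Most S100 genes lie side by side in a chromosomal cluster. HGF binds MET, a receptor tyrosine kinase that signals among others through RAF, MEK and ERK, and it makes MDCK colonies scatter.

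Values are log2 of the deposited GCRMA intensity, and a difference of 1 is a change of 2-fold. GCRMA subtracts a background that depends on probe sequence and compresses dim probe sets towards a floor. Probe sets differ in affinity, so levels are compared between groups within a probe set and never between probe sets. Names ending in _s_at or _x_at belong to probe sets that can match several transcripts or share probes with other sequences. Differences are given as the first group minus the second, ± the standard error (SE) of a limma fit to all 15 arrays. For HGF against Control, HGF + PD against HGF and HGF + UO against HGF the values of the 5 genes are a description without a test, because the genes were chosen with these differences in view.

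The kidney epithelium markers KRT8, KRT18, CDH1, EPCAM, CDH16, PAX8 and PAX2 all reached log2 4. Of the other marker lists, 2 of 6 fibroblast, 3 of 5 endothelium and 3 of 4 leukocyte genes reached it, while COL1A1, COL1A2, DCN, LUM, TEK, VWF and ITGAM stayed below on all arrays. The summed level of a list is log2 of the summed intensities of each gene's brightest probe set, so its brightest genes dominate. In the epithelial list these were KRT8, KRT18 and EPCAM. That sum lay between 16.19 and 16.48 on HGF arrays, against 16.67 to 16.81 on Control arrays. In HGF against Control 26.3% of all probe sets past the filter were higher and 29.2% lower, at a limma adjusted p under 0.05. Of the 7 epithelial genes 1 rose, CDH1, which averaged 10.40 in HGF and 9.80 in Control, and 4 fell. Among those 4, CDH16 was at -3.0 ± 0.19 (limma adjusted p = 6.31e-09) on its brightest probe set. Of its other 2 probe sets, 1 also fell, at -2.10 ± 0.08 (limma adjusted p = 3.42e-11). The dimmest went the other way, at 0.50 ± 0.09 (limma adjusted p = 0.000268). The epithelial sum was 16.30 to 16.44 in HGF + UO and 16.19 to 16.54 in HGF + PD. In each, 0 of the genes were higher and 5 lower than in Control. Of all probe sets 11.9% were higher and 10.3% lower in HGF + UO, and 20.2% and 14.3% in HGF + PD. The summed fibroblast level was 7.39 to 7.47 in HGF and 7.49 to 7.61 in Control. The endothelial sum was 8.83 to 9.02 in HGF and 8.81 to 8.94 in Control, and the leukocyte sum 6.58 to 6.64 in HGF and 6.70 to 6.76 in Control. The log2 ratio of the actin 3′ to 5′ control probe sets, a measure of RNA integrity and labelling, also moved with HGF, at 1.48 ± 0.08 (SD, n = 4) in HGF against 2.24 ± 0.05 (SD, n = 4) in Control. It was 2.15 in HGF + UO and 2.13 in HGF + PD. A second actin 5′ set gave 4.66 in HGF + UO, 4.51 in HGF + PD, 3.94 in HGF and 4.43 in Control. The GAPDH ratio was 0.25 in HGF + UO, 0.18 in HGF + PD, 0.17 in HGF and 0.23 in Control. On a second pair of GAPDH probe sets the HGF + UO arrays stood apart, at 2.20 to 2.25, against 1.93 to 2.07 in HGF + PD, 1.90 to 1.97 in HGF and 1.97 to 2.08 in Control. The part of these shifts in the S100 values was not tested.

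S100A2 had by far the widest range of the 5 genes. It is an S100 protein of epithelial cells, best known from basal keratinocytes, that is found in the nucleus and binds p53. On probe set 1 the HGF + UO arrays read 8.52, 8.63 and 8.44, the HGF + PD arrays 8.98, 8.90, 8.93 and 9.19, the HGF arrays 14.96, 14.96, 14.88 and 15.02, and the Control arrays 8.52, 8.54, 8.74 and 8.66. The HGF arrays stood more than 5 log2 units above every other array, and the HGF + UO arrays lay within or just below the Control range. Its HGF minus Control difference was 6.34 ± 0.07, an 80.9-fold higher intensity. It was 62.1-fold lower in HGF + PD than in HGF (-5.96 ± 0.07) and 85.9-fold lower in HGF + UO than in HGF (-6.42 ± 0.08). In bulk RNA, fewer expressing cells and less RNA per cell cannot be told apart, here and in every value that follows.

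Probe set 2 of S100A2 gave the same order of groups. It read 7.56, 7.37 and 7.32 in HGF + UO, 8.77, 8.32, 8.64 and 9.02 in HGF + PD, 14.55, 14.65, 14.53 and 14.67 in HGF, and 7.99, 7.86, 7.56 and 7.82 in Control. HGF minus Control was 6.80 ± 0.12, HGF + PD minus HGF -5.91 ± 0.12 and HGF + UO minus HGF -7.18 ± 0.13. On both probe sets the order from high to low was HGF, HGF + PD, Control and HGF + UO. HGF + UO and Control overlapped and all other neighbours in that order were apart.

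S100A4, known for binding non-muscle myosin IIA and for its part in cell motility, has 1 probe set. It read 9.92, 10.10 and 9.64 in HGF + UO, 10.90, 10.72, 10.86 and 10.95 in HGF + PD, 12.53, 12.66, 12.49 and 12.65 in HGF, and 10.40, 10.30, 10.24 and 10.38 in Control. No 2 groups overlapped, and the order of groups was that of S100A2. HGF minus Control was 2.26 ± 0.09 (4.78-fold), HGF + PD minus HGF -1.73 ± 0.09 and HGF + UO minus HGF -2.70 ± 0.09.

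S100A10 is the member that does not bind calcium and is held in its active form permanently. It forms a complex with annexin A2 at the plasma membrane, where it carries channels and binds plasminogen. Its probe set 1 read 14.83, 14.86 and 14.74 in HGF + UO, 14.76, 14.63, 14.72 and 14.79 in HGF + PD, 15.84, 15.93, 15.92 and 15.89 in HGF, and 14.97, 14.86, 14.86 and 14.86 in Control. HGF arrays were apart from all others, HGF minus Control being 1.01 ± 0.04 (2.01-fold), HGF + PD minus HGF -1.17 ± 0.04 and HGF + UO minus HGF -1.08 ± 0.04. Its probe sets did not give 1 size of difference. Probe set 5 read 10.05, 10.09 and 9.98 in HGF + UO, 10.02, 9.87, 10.04 and 10.16 in HGF + PD, 12.50, 12.65, 12.47 and 12.63 in HGF, and 10.44, 10.32, 10.21 and 10.42 in Control. There HGF minus Control was 2.22 ± 0.07 (4.64-fold), while the other 5 probe sets of the gene lay between 0.93 and 1.01. The dimmest of those 5 gave 0.96, and 0.46 when an offset of 16 was added before the logarithm.

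S100A11, which pairs with annexin A1 and has been studied in keratinocyte growth control, had HGF minus Control differences from 0.32 to 1.01. Probe set 2 read 14.07, 14.11 and 13.94 in HGF + UO, 14.02, 13.81, 13.93 and 13.84 in HGF + PD, 15.26, 15.29, 15.21 and 15.35 in HGF, and 14.30, 14.27, 14.23 and 14.25 in Control. HGF minus Control was 1.01 ± 0.05 (2.02-fold) there, HGF + PD minus HGF -1.38 ± 0.05 and HGF + UO minus HGF -1.24 ± 0.05. The HGF arrays were highest and the Control arrays lay above those with either inhibitor. On probe set 1, HGF minus Control was 0.48 ± 0.08, with 15.33, 15.50, 15.44 and 15.37 in HGF and 14.98, 14.92, 14.93 and 14.88 in Control. The dim probe set 3, between 4.60 and 5.43 on all arrays, gave 0.32 ± 0.12, and HGF and Control overlapped.

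S100A6, also called calcyclin after its higher level in dividing cells, varied least. Its probe set 2 read 15.91, 15.91 and 15.84 in HGF + UO, 15.91, 15.98, 16.01 and 15.98 in HGF + PD, 16.17, 16.24, 16.23 and 16.23 in HGF, and 16, 15.98, 15.98 and 15.99 in Control. The HGF arrays were again above all others, by 0.23 ± 0.02 over Control (1.17-fold), with 0.12 and 0.11 on the other 2 probe sets. The highest value of any probe set in the table was 16.67, so S100A6 was near the top of the range of the arrays, and whether that bounds its difference was not tested.

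**Figure D1:**
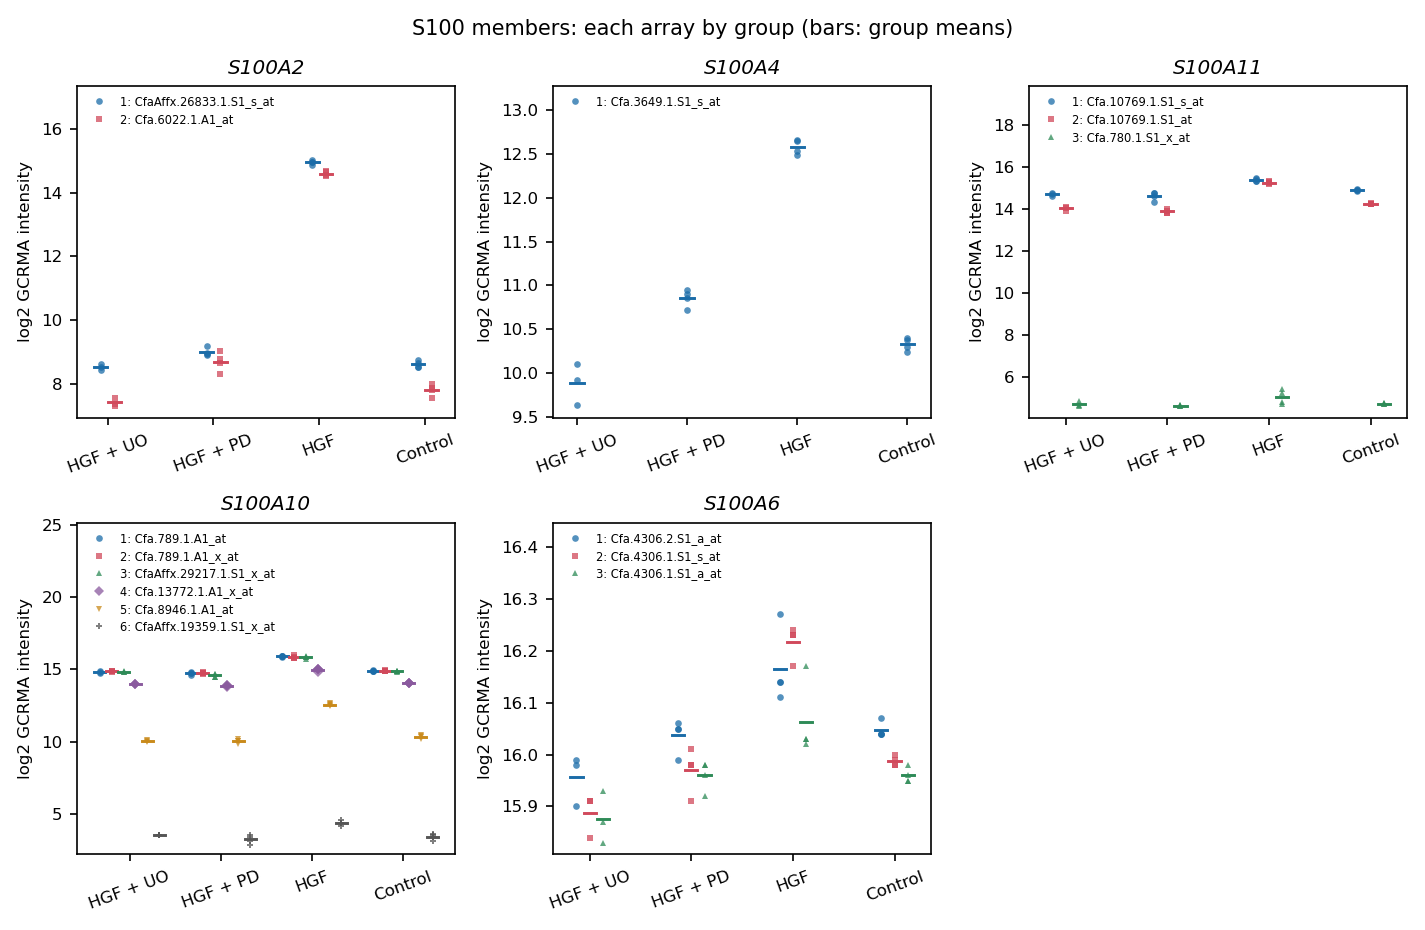
Log2 GCRMA intensity of the 15 probe sets of S100A2, S100A4, S100A11, S100A10 and S100A6 on each array, by group (HGF + UO n = 3, the others n = 4), with bars for group means and a separate axis for each gene. The HGF arrays are highest for each probe set except the dimmest of S100A11, and lie from 14.88 to 15.02 for the brighter S100A2 probe set.

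Over the 5 genes, each represented by its brightest probe set, the median difference was 1.01 for HGF against Control, -1.17 for HGF + PD against HGF and -1.08 for HGF + UO against HGF. The medians over all 24904 probe sets tested were -0.02, -0.01 and 0.00. All 15 probe sets were higher in HGF than in Control, and all 15 were lower with either inhibitor than with HGF alone. Of all probe sets tested, 26.3% were higher and 29.2% lower in HGF than in Control at an adjusted p under 0.05. In HGF + PD against HGF 30.3% were higher and 25.1% lower, and in HGF + UO against HGF 27.2% were higher and 25.2% lower. With median centring the larger side turned round in all 3, the higher direction then taking 52.8%, 44.8% and 46.4% of the calls in place of 47.4%, 54.7% and 51.9%. The 5 genes were chosen with these comparisons known, and all 3 share the HGF arrays, so nothing is read from the counts.

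How far each gene stood from Control when HGF was given with an inhibitor was tested, with Benjamini-Hochberg adjustment over all 24904 probe sets. These comparisons use the same arrays as the known ones, so they are not independent of how the genes were chosen. With HGF + PD, S100A2 and S100A4 stayed above Control while S100A10 and S100A11 were below it. S100A2 was higher in HGF + PD than in Control by 0.38 ± 0.07 (limma adjusted p = 0.000755) on probe set 1 and by 0.88 ± 0.12 (limma adjusted p = 8.27e-05) on probe set 2. S100A4 was higher by 0.53 ± 0.09 (limma adjusted p = 0.000283), or 1.44-fold. On each of the 3 probe sets every HGF + PD array lay above every Control array.

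S100A10 was lower in HGF + PD than in Control on 5 of its 6 probe sets, with differences of -0.16 to -0.32. Probe set 3 gave -0.30 ± 0.05 (limma adjusted p = 0.000218) and probe set 5 gave -0.32 ± 0.07 (limma adjusted p = 0.00223). The smallest of the 5, on probe set 2, lost its call when the arrays were quantile normalized again, at -0.12. S100A11 was lower, at -0.36 ± 0.05 (limma adjusted p = 4.92e-05) on probe set 2 and at -0.28 ± 0.08 (limma adjusted p = 0.0101) on probe set 1. Its dim probe set 3 did not pass, at -0.08 ± 0.12 (limma adjusted p = 0.625). No S100A6 probe set passed, and their intervals ran from -0.07 to 0.07. In all, 3 of the 15 probe sets were higher and 7 lower, against 20.2% higher and 14.3% lower among all probe sets. The higher direction took 58.6% of all calls in HGF + PD against Control, but 51.9% with median centring and 51.2% with quantile normalization. Probe sets of 1 gene read the same RNA and are not separate evidence.

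With HGF + UO, 0 of the 15 probe sets were higher than in Control and 4 were lower, against 11.9% and 10.3% of all probe sets in the limma fit. At an unadjusted p under 0.05 the counts were 0 and 8. S100A4 was below Control, at -0.44 ± 0.09 (limma adjusted p = 0.00315), with 3 of 3 HGF + UO arrays under the lowest Control array. S100A11 was lower, at -0.22 ± 0.05 (limma adjusted p = 0.00643) on probe set 2, and S100A10 at -0.31 ± 0.07 (limma adjusted p = 0.00854) on probe set 5. The other probe sets of both genes did not pass: those of S100A11 gave -0.20 (limma adjusted p = 0.0936) and -0.02, and those of S100A10 lay between -0.08 and 0.12, with -0.08 (limma adjusted p = 0.247) on the brightest. S100A6 was lower, at -0.10 ± 0.03 (limma adjusted p = 0.0112) on probe set 2, a call lost without the variance trend, under quantile normalization (-0.07) or without HGF + UO replicate 3 (-0.08). S100A2 did not pass. Its differences were -0.09 (95% interval -0.25 to 0.08, limma adjusted p = 0.508) on probe set 1 and -0.39 (95% interval -0.68 to -0.10, limma adjusted p = 0.0531) on probe set 2. The second passed under the stricter filter, median centring, quantile normalization, a fit to the 2 groups alone, and without Control replicate 3 (-0.47) or without HGF + PD replicate 2 or 4 (-0.39 each).

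The arrays with the 2 inhibitors were also set against each other. The doses were 10 uM for UO126 and 50 uM for PD09859, so the values compare the 2 treatments as given and not the compounds. S100A2 was lower in HGF + UO than in HGF + PD, at -0.47 ± 0.08 (limma adjusted p = 0.00234) and -1.27 ± 0.13 (limma adjusted p = 0.000154) on its 2 probe sets, and S100A4 at -0.97 ± 0.09 (limma adjusted p = 6.41e-05). S100A10 was higher by 0.25 ± 0.05 (limma adjusted p = 0.00829) on probe set 3. Its other 5 probe sets did not pass, with differences from 0.02 to 0.29 and intervals from -0.14 to 0.61. For S100A11 the intervals of its 3 probe sets ran from -0.21 to 0.34, and for S100A6 from -0.16 to -0.01, with none past the threshold. That made 1 of 15 probe sets higher and 3 lower, against 2.55% and 6.66% of all probe sets. Of all calls in this comparison 27.7% were in the higher direction, but 39% with median centring and 41.3% with quantile normalization. The member counts were 2 higher without HGF + PD replicate 1 or HGF replicate 4, and 5 lower without HGF replicate 2.

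**Figure D2:**
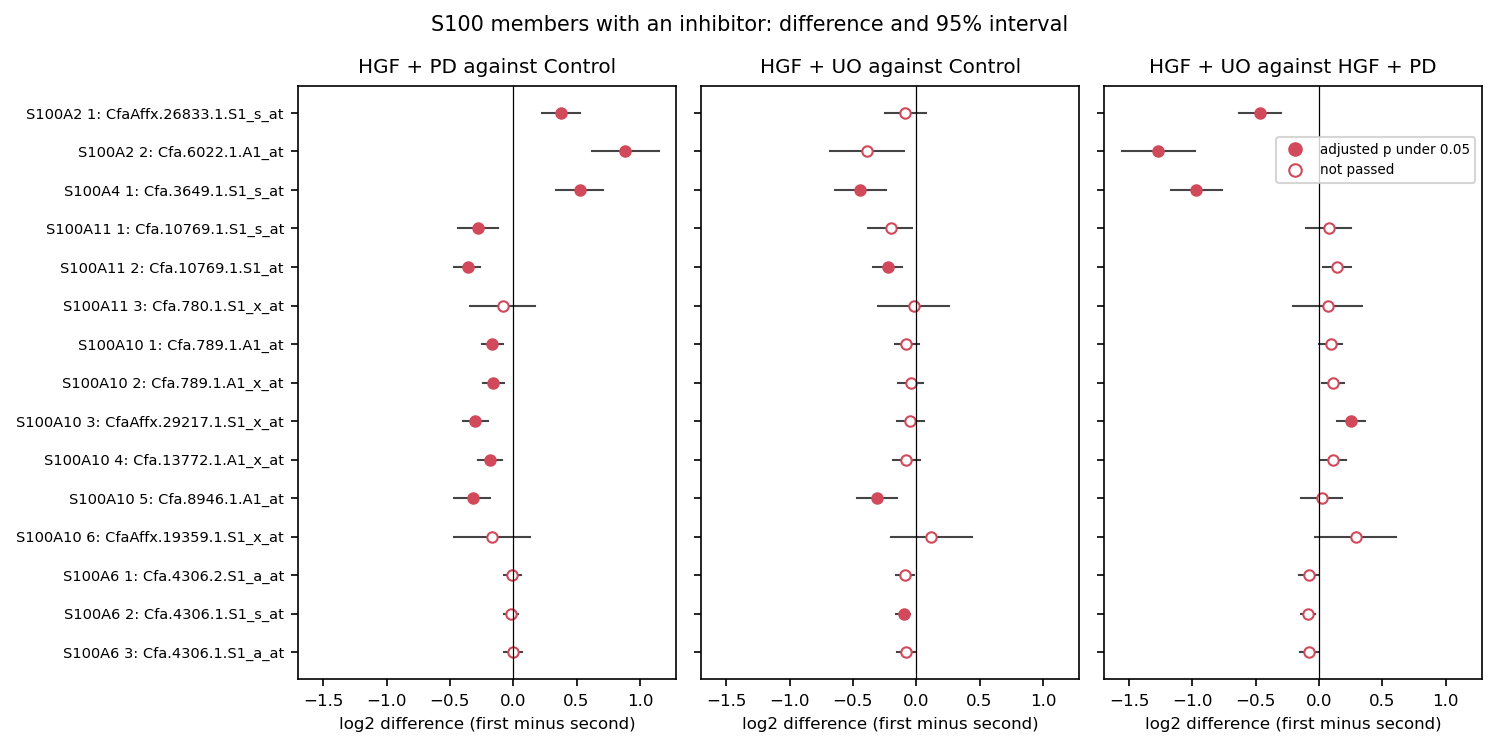
Log2 difference of the 15 S100 probe sets for HGF + PD against Control, HGF + UO against Control and HGF + UO against HGF + PD, with 95% intervals from the limma fit; filled points have an adjusted p under 0.05. S100A2 and S100A4 lie right of 0 with HGF + PD against Control (0.38, 0.88 and 0.53) and left of 0 with HGF + UO against HGF + PD, while the called S100A10 and S100A11 points lie left of 0 in the first panel.

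The S100 genes outside the chosen 5 were taken as a list. The list holds 15 such genes, of which the annotation covers 11 and the filter kept 7. S100A3, S100A5, S100B and S100G did not pass the filter, and S100A7, S100A12, S100A15 and S100Z are not analysed here. In HGF against Control 3 of the 7 rose, 1 fell and 3 did not pass, and the median difference was 0.06. Of all probe sets 26.3% were higher and 29.2% lower.

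S100A14, an epithelial S100 protein, rose the most in that list. Its brighter probe set read 10.42, 10.10 and 10.01 in HGF + UO, 10.39, 10.25, 10.30 and 10.47 in HGF + PD, 13.52, 13.52, 13.54 and 13.52 in HGF, and 10.61, 10.52, 10.64 and 10.44 in Control. The HGF arrays were within 0.02 of each other and far from all others. HGF minus Control was 2.97 ± 0.08 (limma adjusted p = 7.02e-13), HGF + PD minus HGF -3.17 ± 0.08 and HGF + UO minus HGF -3.35 ± 0.08. The second probe set of the gene gave 3.30, -3.40 and -3.82 for these comparisons.

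S100A16, a widely expressed family member, rose by 1.90 ± 0.11 (limma adjusted p = 1.8e-09) in HGF against Control and by 1.32 on its other probe set. Its arrays read 8.90, 8.85 and 8.88 in HGF + UO, 8.64, 9.0, 8.79 and 8.57 in HGF + PD, 10.46, 10.68, 10.76 and 10.70 in HGF, and 8.90, 8.79, 8.86 and 8.45 in Control. All groups other than HGF overlapped. S100P, first found in placenta, read 12.96, 12.85 and 12.90 in HGF + UO, 12.86, 12.97, 12.83 and 12.99 in HGF + PD, 14.06, 14.08, 14.16 and 14.16 in HGF, and 13.23, 13.12, 13.21 and 13.13 in Control. It rose by 0.94 ± 0.04 with HGF over Control (limma adjusted p = 2.19e-10), and with either inhibitor lay under Control, at -0.26 ± 0.04 in HGF + PD (limma adjusted p = 0.000381) and at -0.27 ± 0.05 in HGF + UO (limma adjusted p = 0.000783).

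S100A1, the form best known from heart muscle, went the other way. It read 8.49, 8.19 and 8.41 in HGF + UO, 8.06, 8.06, 8.06 and 8.14 in HGF + PD, 7.02, 6.61, 6.96 and 7.11 in HGF, and 8.07, 7.97, 8.19 and 8.12 in Control. The HGF arrays were the lowest, at -1.16 ± 0.10 against Control (limma adjusted p = 1.16e-07), and -0.86 ± 0.12 on the second probe set. HGF + PD minus HGF was 1.16 ± 0.10 and HGF + UO minus HGF 1.44 ± 0.11. On the second probe set HGF + UO was also above Control, by 0.91 ± 0.13 (limma adjusted p = 0.000161), which the first did not call (0.28, limma adjusted p = 0.078). S100A13, which takes part in the release of proteins that lack a signal peptide, did not pass in HGF against Control, at -0.14 ± 0.13 (limma adjusted p = 0.375).

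S100A8 and S100A9, which together form calprotectin of neutrophils, lay near the floor, between 4.70 and 5.39 and between 3.95 and 4.15. Neither passed in any of the 6 comparisons. The list had 1 gene higher and 3 lower in HGF + PD against HGF, and 2 and 3 in HGF + UO against HGF. Among all probe sets the shares were 30.3% and 25.1%, and 27.2% and 25.2%. Against Control the list had 0 and 1 in HGF + PD, and 0 and 2 in HGF + UO. There the shares were 20.2% and 14.3%, and 11.9% and 10.3%. At an unadjusted p under 0.05 the limma fit gave 0 and 2 in HGF + PD against Control, and 1 and 2 in HGF + UO against Control. In HGF + UO against HGF + PD it had 0 and 0 on the brighter probe sets (1 and 0 at an unadjusted p under 0.05 with limma), while the second S100A1 probe set gave 0.59 (limma adjusted p = 0.0139) and the second S100A14 probe set -0.42 (limma adjusted p = 0.0131).

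**Figure D3:**
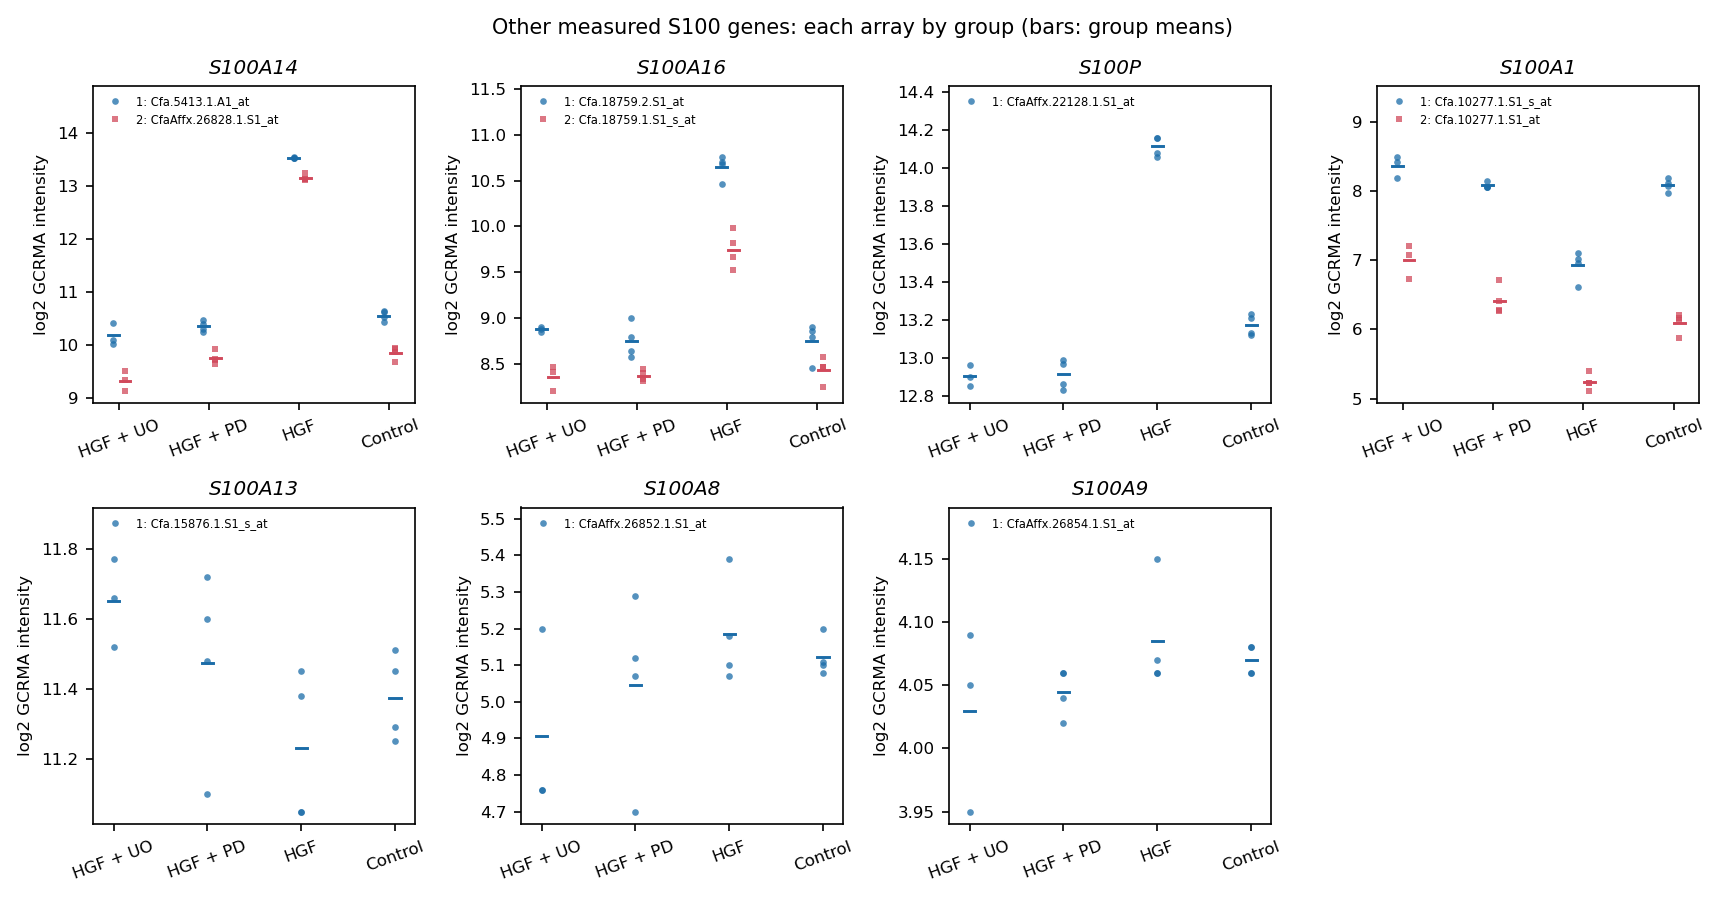
Log2 GCRMA intensity of the 7 other measured S100 genes on each array, by group, with bars for group means and a separate axis for each gene. S100A14, S100A16 and S100P are highest and S100A1 lowest on the HGF arrays, while S100A8 and S100A9 stay between 3.95 and 5.39.

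In the gene order of the dog RefSeq annotation (assembly UU_Cfam_GSD_1.0), most of these genes form a run. S100A1 and S100A13 come first, then S100A14, S100A16, S100A2, S100A3, S100A4, S100A5 and S100A6, and at the far end S100A8, S100A12 and S100A9, with uncharacterised loci in between. Along that order HGF minus Control was -1.16 for S100A1, -0.14 for S100A13, 2.97 for S100A14, 1.90 for S100A16, 6.34 for S100A2, 2.26 for S100A4, 0.12 for S100A6 on its brightest probe set, 0.06 for S100A8 and 0.02 for S100A9. The values of the chosen genes in this order are a description, and no pattern along the run was tested. S100A3 and S100A5 lie between the chosen genes and stayed under the filter, with S100A3 between 2.51 and 2.61 on all arrays. S100A10 and S100A11 are adjacent on another chromosome.

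The list of proteins known to bind S100 proteins has 18 genes, 17 of them annotated and 14 kept by the filter. In HGF against Control 7 rose and 1 fell, with a median of 0.20 against -0.02 over all probe sets. Of all probe sets 26.3% were higher and 29.2% lower. In HGF + PD against HGF 3 partners were higher and 8 lower, with a median of -0.30, against 30.3% and 25.1% of all probe sets. In HGF + UO against HGF 2 were higher and 8 lower, with a median of -0.32, against 27.2% and 25.2%. With median centring, 1 partner was higher in each of these comparisons with an inhibitor. Against Control, 2 were higher and 3 lower in HGF + PD, against 20.2% and 14.3% of all probe sets. In HGF + UO 1 was higher and 3 lower, against 11.9% and 10.3%. Only 1 was lower in HGF + UO when Control replicate 1, 2 or 3, HGF + PD replicate 2 or 3, HGF + UO replicate 1 or 3 or HGF replicate 3 or 4 was left out.

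ANXA2, the annexin bound by S100A10, rose by 0.73 ± 0.04 in HGF against Control (limma adjusted p = 1.31e-09), with -0.80 ± 0.04 in HGF + PD against HGF and -0.86 ± 0.04 in HGF + UO against HGF. A second ANXA2 probe set gave 1.36, -1.45 and -1.56. AHNAK, a very large scaffold protein that binds the complex of ANXA2 and S100A10, rose by 0.66 ± 0.12 (limma adjusted p = 0.000173), and its other 5 probe sets gave 0.90 to 2.31. In HGF + PD against HGF its brightest probe set gave -0.84 ± 0.12. The probe set with 2.31 was dim outside HGF, averaging 4.11 in HGF + UO, 4.04 in HGF + PD, 7.25 in HGF and 4.94 in Control, so the sizes of its differences are uncertain. ANXA1, the annexin bound by S100A11, rose by 0.32 ± 0.03 (limma adjusted p = 2.79e-07), by 0.59 and by 1.43 on 3 probe sets.

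MYH9, the heavy chain of the non-muscle myosin IIA that S100A4 binds, rose by 0.90 ± 0.10 in HGF against Control (limma adjusted p = 3.57e-06), and its other 3 probe sets gave 0.89 to 1.19. In HGF + PD against HGF the difference was -1.53 ± 0.10 and in HGF + UO against HGF -0.97 ± 0.11. MYH9 was lower in HGF + PD than in Control, at -0.63 ± 0.10 (limma adjusted p = 0.000304), and HGF + UO minus Control was -0.07 ± 0.11 (limma adjusted p = 0.76). Neither of the S100A6 partners CACYBP and ANXA11 passed in HGF against Control. CACYBP, the calcyclin-binding protein, gave 0.07 ± 0.05 for HGF against Control (limma adjusted p = 0.29) and ANXA11 gave -0.05 ± 0.06 (limma adjusted p = 0.558). SUGT1, another protein that binds S100A6, named after its values were seen, rose by 0.43 ± 0.07 (limma adjusted p = 0.0001) and by 0.43 on its second probe set. PPP5C, another partner on the list and likewise named afterwards, averaged 9.64 in HGF and 9.93 in Control on its brightest probe set. Its other probe sets averaged 8.33 and 6.61 in HGF, and 8.64 and 6.75 in Control. In HGF + PD against HGF, CACYBP and ANXA11 passed in opposite directions, CACYBP at 0.15 ± 0.05 (limma adjusted p = 0.0265) and ANXA11 at -0.24 ± 0.06 (limma adjusted p = 0.00456).

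**Figure D4:**
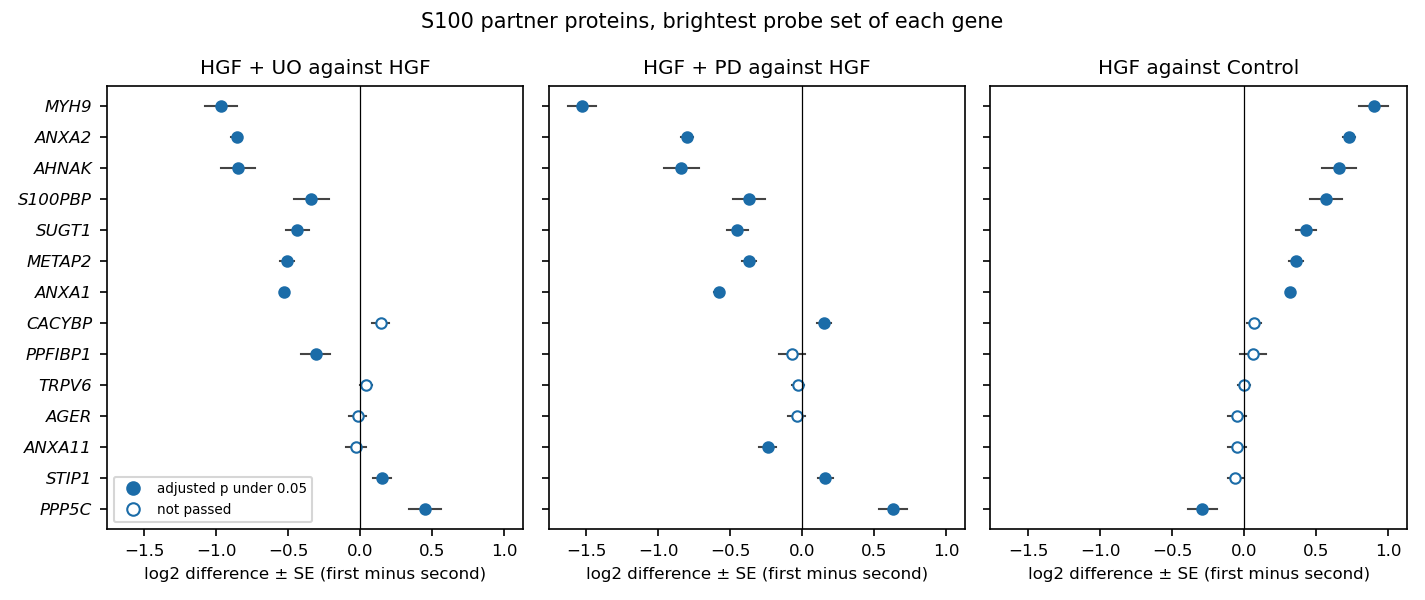
Log2 difference ± SE of the 14 measured S100 partner proteins, brightest probe set each, for HGF + UO against HGF, HGF + PD against HGF and HGF against Control; filled points have a limma adjusted p under 0.05. MYH9 (0.90), ANXA2 (0.73) and AHNAK (0.66) have the largest positive values in HGF against Control and lie left of 0 in both inhibitor panels, which share the HGF arrays with the third.

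Annexins that are not listed as S100 partners were mixed. Of 7 measured, 3 rose and 3 fell in HGF against Control, with a median of 0.11. Of all probe sets 26.3% were higher and 29.2% lower. The annexins named here were picked for the largest called differences in this same comparison, so their small p-values follow from the choice. ANXA10 rose by 2.51 ± 0.08 (limma adjusted p = 6.02e-12) and ANXA5, which binds phosphatidylserine, by 0.94 ± 0.04 (limma adjusted p = 5.29e-11). ANXA13, the annexin of intestinal and kidney epithelium, fell, at -1.39 ± 0.08 (limma adjusted p = 3.58e-09). With HGF + PD against HGF 2 were higher and 5 lower, against 30.3% and 25.1% of all probe sets. With HGF + UO against HGF 2 were higher and 4 lower, against 27.2% and 25.2%.

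Other EF-hand proteins moved both ways. Of 22 measured, 7 rose and 9 fell in HGF against Control, with a median of -0.04. Of all probe sets 26.3% were higher and 29.2% lower, so nothing particular to this list is read from the counts. The genes named next were likewise picked for the largest called differences in HGF against Control. GCA (grancalcin) fell, at -3.17 ± 0.17 (limma adjusted p = 7.13e-10). Its HGF arrays read 3.57 to 3.60, under the filter's level of 4, so the size of that difference is uncertain. NCALD (neurocalcin delta) fell, at -1.66 ± 0.27 (limma adjusted p = 8.53e-05), and RCN2 (reticulocalbin 2) at -1.41 ± 0.04 (limma adjusted p = 1.56e-12). A second NCALD probe set gave 0.00. In HGF + PD against HGF 11 were higher and 7 lower, against 30.3% and 25.1% of all probe sets. In HGF + UO against HGF 12 were higher and 7 lower, against 27.2% and 25.2%.

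Across the 15 arrays the 5 genes correlated with each other at Pearson r from 0.789 (S100A4 with S100A11) to 0.979 (S100A2 with S100A10). The arrays fall into 4 groups of which HGF is the high one, so these values mostly describe the groups. After each group's mean was taken off, r was 0.751 for S100A4 with S100A10, 0.499 for S100A2 with S100A4 and -0.288 for S100A2 with S100A11.

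Outside the family, the genes most like S100A2 over the 15 arrays were RGS2, a regulator of G protein signalling (r = 0.999), the desmosomal cadherin DSG3 (r = 0.997) and INHBA, the subunit of activin A (r = 0.997). RGS2 averaged 8.29 ± 0.28 (SD, n = 3) in HGF + UO, 8.61 ± 0.12 in HGF + PD, 14.14 ± 0.04 in HGF and 8.42 ± 0.14 in Control (SD, n = 4 each). DSG3 was near the floor in all groups but HGF, at 1.97 in HGF + UO, 1.96 in HGF + PD, 9.54 in HGF and 1.97 in Control. INHBA was too, at 2.71 in HGF + UO, 2.67 in HGF + PD, 6.22 in HGF and 2.70 in Control. Both passed the filter only through the HGF arrays and so had to be higher there. Their high r with S100A2 therefore follows in part from the filter. For S100A10 the nearest were ENTPD3 (r = 0.994), the protease inhibitor TIMP1 (r = 0.993) and DDX60 (r = 0.993). TIMP1 averaged 5.84 in HGF + UO, 5.87 in HGF + PD, 13.89 in HGF and 6.48 in Control, a wider range than that of S100A10. Its Control mean lay above both inhibitor means, as on the brightest S100A10 probe set. On that S100A10 probe set, however, HGF + UO minus Control was -0.08 and did not pass (limma adjusted p = 0.247).

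For S100A4 the nearest genes were PTPN12 (r = 0.989), a tyrosine phosphatase, MCMBP (r = 0.987) and DBNDD2 (r = 0.985). PTPN12 averaged 12.57 ± 0.05 in HGF + UO (SD, n = 3), 12.89 ± 0.09 in HGF + PD, 13.71 ± 0.06 in HGF and 12.68 ± 0.06 in Control (SD, n = 4 each), the order of S100A4. For S100A11 they were TUFT1 (r = 0.983), LOC607149 (r = 0.983) and the lipoprotein-binding HDLBP (r = 0.981). For S100A6 they were LGALS3, which encodes galectin-3 (r = 0.955), SCAPER (r = 0.944) and OXSR1 (r = 0.931). LGALS3 averaged 15.50 in HGF + UO, 15.60 in HGF + PD, 15.86 in HGF and 15.68 in Control.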

How the data were processed

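Total RNA of 15 cultures was labelled with biotin and read on Affymetrix canine arrays, and the 4 groups were taken from the labels. The deposited values are linear intensities per probe set that the authors computed with GCRMA, per the submitters' processing notes; no version of it is given in the sources used here. Log2 was taken with no offset and no further scaling. The 111 control probe sets were left out, and probe sets with log2 of at least 4 on at least 3 arrays were kept (24904 of 43035). Gene names came from the platform annotation, and a probe set with more than 1 symbol stayed unnamed. A gene on a list was represented by its brightest probe set. The shares set beside the list counts are over all 24904 probe sets, so they differ from the counts in unit and brightness. For arrays, the number of arrays limits the precision.

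Tests used limma 3.58.1 under R 4.3.3 (1 mean per group on all 15 arrays, eBayes with a variance trend, Benjamini-Hochberg over the 24904 probe sets, threshold 0.05), and the procedure was tested on simulated data. Tables and figures were made with Python 3.11.15. The members, lists and tests were chosen with earlier results of these data known. SUGT1 and PPP5C were named after their values were seen, outside the rule that follows. Named were all member probe sets, each measured gene of the S100 family, 6 partners set by name, the 3 largest called differences for HGF against Control of each other list, genes between members on the chromosome, and the 3 genes with the highest Pearson r to each member. Alternatives were the filter, an offset of 16, no variance trend, median centring, quantile normalization, a fit to 2 groups only, the replicate number as a block, the mean of a gene's probe sets, and leaving out each array. No set test was run.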

Additional observations from a re-analysis of the deposited data

Results flagged for a closer look

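Among 75 groups of 4 arrays, 1 for each kept probe set of the S100 genes and group, 10 had 1 array apart from the other 3 by Dixon's 95% criterion (0.829), where chance gives about 1 in 20. For S100A10, Control replicate 1 was the high array, at 14.97 against 14.86 on probe set 1 and at 14.96 against 14.86 to 14.87 on probe set 2, which read the same RNA.

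S100A6 gave 5 of the 10, all of them gaps of under 0.2. HGF replicate 2 was high at 16.17 on probe set 3 and at 16.27 on probe set 1, while HGF replicate 1 was low at 16.17 on probe set 2, where the others lay at 16.23 to 16.24. On probe set 1, HGF + PD replicate 1 was low at 15.99 and Control replicate 1 high at 16.07. The remaining 3 were S100A1 in HGF + PD replicate 4 at 8.14, against 8.06 in the others, S100A9 in HGF replicate 1 at 4.15, and S100A14 in HGF replicate 3 at 13.54, against 13.52.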

How the results depend on the processing

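Under the alternatives no difference of an S100 member that was called changed its sign. Of the entries for member differences, 846 kept their side of the threshold or moved by less than the spread between replicates. Another 11 moved by more, 26 were marked as gaining a call and 5 as losing one. Leaving out arrays gave each difference 2 entries, its lowest and highest value, both marked by the most changed of those fits. The entries are therefore not a count of separate calls. Of the list counts 484 stayed within 1.5 times, 19 were larger and 25 smaller. The comparison of HGF + UO with HGF + PD depended most on the arrays used. Its 2295 called probe sets became 997 in a fit to the 2 groups only, and 1208 (without HGF + PD replicate 4) to 2924 when 1 array was left out, with 1254, 1484 and 1475 without HGF + UO replicates 2, 1 and 3. Member probe sets lower in HGF + UO than in Control numbered 9 in place of 4 with 2 groups only. In HGF + UO against HGF + PD, leaving out 1 array gave 1 to 2 member probe sets higher and 3 to 5 lower. In the other S100 family, S100A13 was 1 of 2 genes higher in HGF + UO than in HGF, a count that was 1 without HGF + UO replicate 1 or 3 or HGF replicate 1 or 2. That list had 2 genes lower in HGF + PD than in Control, in place of 1, without Control replicate 4, HGF + PD replicate 4 or HGF + UO replicate 1 or 3, 1 gene higher in HGF + UO than in Control, in place of 0, without HGF + UO replicate 2 or HGF replicate 2, and 2 genes higher in HGF + PD than in HGF, in place of 1, without HGF + PD replicate 1. Of the partners, 0 in place of 1 were lower in HGF than in Control without HGF replicate 1 or Control replicate 1, and 1 in place of 3 was higher in HGF + PD than in HGF without HGF + PD replicate 1. Partners higher in HGF + UO than in HGF numbered 1 in place of 2 without HGF + UO replicate 1 or HGF replicate 3 or 4, and those higher in HGF + PD than in Control 1 in place of 2 without HGF + PD replicate 2 or 4. The causes were not tested. Same-numbered arrays of different groups correlated at -0.247 to 0.412 over 21 pairs in their deviations from group means. Differently numbered arrays of different groups correlated at -0.494 to 0.395. Whether same-numbered arrays shared a batch was not tested. With the replicate number as a block, HGF + UO against HGF + PD had 1858 called probe sets and HGF against Control 13924, and no count of member probe sets changed. Of the other lists, partners lower in HGF + UO than in Control numbered 1 in place of 3 with the block, and other S100 genes higher in HGF + UO than in Control and than in HGF + PD numbered 1 in place of 0 each.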
